A study of Mus musculus with 12 samples.

Results

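The response of Adar-null B16 cells to interferon-beta (IFNb) was read from 6 RNA sequencing libraries of a series of 12. B16 is an established mouse melanoma cell line. The cells had received Cas9 and a guide RNA against Adar on plasmids for a short time, and were then subcloned and checked for the deletion. In 3 libraries the cells had been given IFNb at 1000 U per mL for 36 h. In the other 3 they had been given the vehicle, saline with albumin, for the same 36 h. These 6 libraries were chosen by their labels alone, and the response is described across every gene that could be tested. The 6 remaining libraries, 3 with IFNb and 3 with vehicle at the same dose and time, come from control cells made with a guide that has no target in the genome. They are used here to test where the Adar-null response differs from that of cells that passed through the same Cas9 steps. All 12 libraries thus carry the B16 background and a history of Cas9. Each genotype rests on 1 guide and the cells subcloned from it, and effects of the subcloning cannot be told apart from those of the deletion. Whether replicates were separate cultures is not stated in the labels. The p-values therefore rest on the variation among libraries, some or all of which may be technical.

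Type I interferons bind the receptor IFNAR. Its kinases JAK1 and TYK2 phosphorylate STAT proteins, which join IRF9 in the complex ISGF3. This complex binds interferon-stimulated response elements (ISREs) in the promoters of the antiviral genes. Adar encodes the adenosine deaminase ADAR1, which converts adenosine to inosine in double-stranded RNA and has an isoform that interferon itself induces. Unedited double-stranded RNA of the cell's own genes can be read by sensors such as MDA5, PKR and the OAS enzymes, many of which are themselves interferon-induced. Their known outputs are new interferon and NF-kB signalling, a halt of protein synthesis, and cell death.

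Promoter sequences of 6 genes are shown first, as examples of the short motifs that are counted over all promoters at the end. They were picked after their values were seen, as examples of a strongly raised antiviral gene (Ifit1), a raised GTPase gene of the IRG family (Igtp), a chemokine gene (Cxcl10), an NF-kB inhibitor gene (Nfkbia), a lowered replication gene (Mcm6) and a lowered mitosis gene (Cdk1). The bases come from RefSeq on GRCm38.p6, lie just upstream of the annotated start, and are written 5′ to 3′ on the strand of the gene. Capitals mark the matches named under the sequences, and other matches to the motifs counted at the end are in lower case.
Ifit1, chr19:34640739-34640888, plus strand: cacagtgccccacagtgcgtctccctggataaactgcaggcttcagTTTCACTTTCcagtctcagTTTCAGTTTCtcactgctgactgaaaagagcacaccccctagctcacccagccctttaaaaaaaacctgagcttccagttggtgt
Igtp, chr11:58199456-58199555, plus strand: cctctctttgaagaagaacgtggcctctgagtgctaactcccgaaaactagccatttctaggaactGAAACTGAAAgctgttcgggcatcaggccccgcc
Cxcl10, chr5:92348890-92349139, minus strand: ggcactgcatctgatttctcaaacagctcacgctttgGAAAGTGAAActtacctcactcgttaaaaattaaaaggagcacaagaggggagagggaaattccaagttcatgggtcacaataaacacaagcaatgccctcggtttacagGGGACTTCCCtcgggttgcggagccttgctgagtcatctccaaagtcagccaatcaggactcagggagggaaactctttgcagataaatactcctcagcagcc
Nfkbia, chr12:55492648-55492747, minus strand: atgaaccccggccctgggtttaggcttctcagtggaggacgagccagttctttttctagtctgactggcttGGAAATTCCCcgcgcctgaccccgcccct
Mcm6, chr1:128359706-128359855, minus strand: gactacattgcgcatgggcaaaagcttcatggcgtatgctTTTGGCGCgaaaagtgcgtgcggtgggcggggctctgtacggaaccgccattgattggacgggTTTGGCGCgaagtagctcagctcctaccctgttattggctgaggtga
Cdk1, chr10:69352913-69353012, minus strand: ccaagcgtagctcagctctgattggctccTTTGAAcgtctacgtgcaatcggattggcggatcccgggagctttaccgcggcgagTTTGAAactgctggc
In Ifit1 the capitals are a pair of matches to the ISRE core, which is GAAA, any 2 bases and GAAA, read here on the other strand, which begin 104 and 85 bases before the start. In Igtp the ISRE core begins 34 bases before the start. Cxcl10 holds an ISRE core 213 bases and a kappaB motif, which is GGGA, any base, TT, any base and CC, 103 bases before its start. Nfkbia holds a kappaB match 29 bases before its start, read on the other strand. Mcm6 holds the E2F motif TTTGGCGC 110 and 47 bases before its start. Cdk1 holds the cell cycle genes homology region (CHR), TTTGAA, 71 and 15 bases before its start. A match is a run of letters and not a measured binding site.

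The 6 Adar-null libraries held 5375649 to 7153480 counts each, which is also the range over all 12. Rn45s, the ribosomal RNA precursor, took 21.9, 22.9 and 21.1% of the counts with vehicle and 25.8, 26.6 and 28.5% with IFNb, so the groups do not overlap in it. With Rn45s left out of the library sizes 4238 genes were called higher and 4143 lower, against 4232 and 4132 with it, and the 8355 calls shared by both had the same direction. Genes with at least 1 count numbered 13854 to 13988 with vehicle and 14419 to 14767 with IFNb. Chi-square per degree of freedom between replicates ran from 1.68 to 3.36, above the level of sampling noise, and no pair looked like a library deposited a second time. Levels are CPM (a gene's counts relative to the library total after TMM scaling), given for replicates 1, 2 and 3 in that order. The floor, a total of 3 counts over a group, is 0.161 CPM with vehicle and 0.164 CPM with IFNb. Melanocyte genes (Tyr, Tyrp1, Dct, Pmel, Mlana, Mitf, Sox10, Slc45a2 and Gpr143) were counted in every library and summed to between 15858 and 16055 CPM with vehicle and between 10656 and 11393 CPM with IFNb, so the cells carry the markers of their lineage. Of 8 leukocyte markers 4 were at 0 in all 6 libraries, among them Ptprc, Cd3e and Nkg7, and the 8 summed to 0.343 to 0.414 CPM with vehicle and 0 to 0.752 CPM with IFNb. Of 4 markers each, fibroblasts (Dpt and Lum at 0) summed to 1.24 to 2.4 CPM with vehicle and 0.475 to 1.14 CPM with IFNb, endothelium to 0 to 0.276 and 0.949 to 1.70 CPM, and epithelium (Epcam and Krt14 at 0) to 3.43 to 4.28 and 0.902 to 1.70 CPM.

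The targeted gene was counted in every library. Adar, on chromosome 3, stood at 65.6, 56.3 and 56.7 CPM with vehicle and at 418, 422 and 383 CPM with IFNb. The counts rose 6.87-fold (log2 fold change 2.78 ± 0.07, standard error, adjusted p = 9.96e-78). A count over the whole gene does not show small deletions, so these values do not test the loss of the protein. In control cells the rise was 2.41 ± 0.07, and the difference in response was 0.36 ± 0.09 (adjusted p = 2.93e-05).

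The response reached most of the measured transcriptome. Of 11561 genes tested, 8364 were called at an adjusted p under 0.05 (72.3%), 4232 of them higher (36.6%) and 4132 lower (35.7%) with IFNb. Counts for the lists below are to be read against these shares. Most changes were small: the called rises had a median log2 fold change of 0.59 and the called falls of -0.70, and the median over all genes was 0.01. TMM scaling centres the changes, so this median and the near balance of rises and falls depend on it. A change in the total RNA of a cell would not be seen. At least 2-fold changes were fitted for 1079 higher (9.33%) and 1347 lower genes (11.7%). At 4-fold there were 353 higher (3.05%) and 466 lower genes (4.03%), and at 16-fold 176 higher (1.52%) and 63 lower genes (0.545%). The large changes were thus more often falls at 4-fold and more often rises at 16-fold. Of the tested genes 64 were at 0 in a group, and their fitted size depends on the small count the fit adds. Members of the lists below that had no count or few counts with vehicle passed the filter on low counts only through libraries with IFNb. They therefore had to differ.

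The share of the libraries taken by these genes moved with them. The 1079 genes that rose at least 2-fold held 2.67, 2.65 and 2.67% of the counts without Rn45s with vehicle and 12.6% in each library with IFNb. The 1347 genes that fell at least 2-fold went from 14.3, 14.5 and 14.1% to 4.54, 4.56 and 4.60%. In 8523 of the 11561 genes (73.7%) the 3 libraries with IFNb did not overlap the 3 with vehicle. For the genes given below with a value in each library, the groups do not overlap unless this is said.

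**Figure D1:**
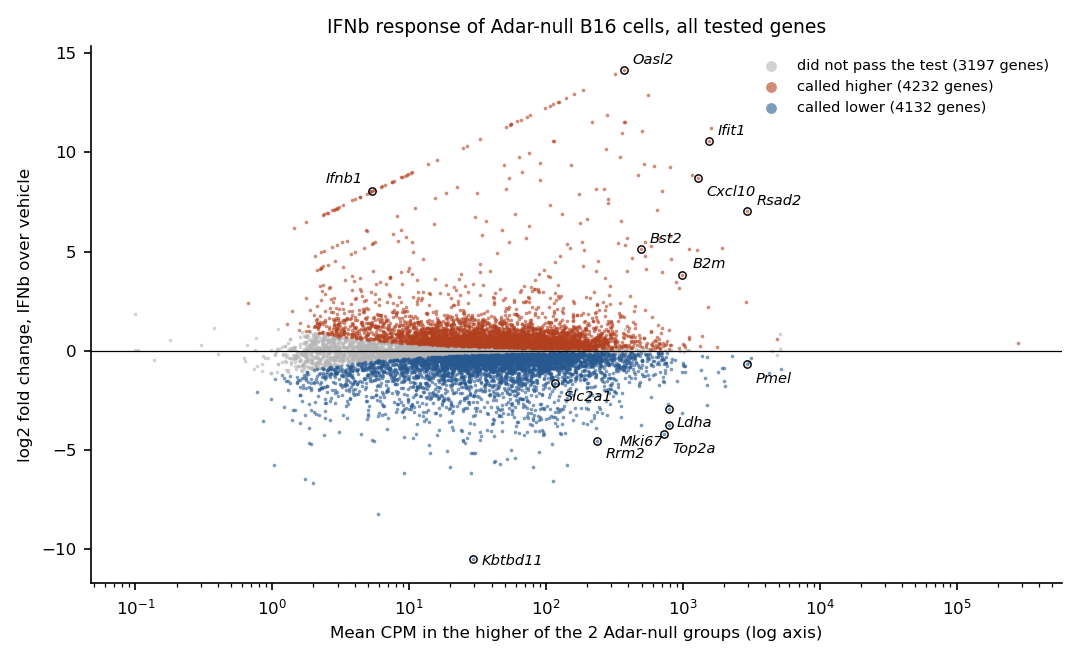
Log2 fold change with IFNb in Adar-null cells against the mean CPM in the higher of both groups (log axis) for the 11561 genes tested, with 4232 genes called higher in red, 4132 called lower in blue and 14 labelled. Points high on the plot include interferon-stimulated genes such as Ifit1 and Oasl2, points low on it include Rrm2 and Top2a, and genes at 0 in a group (Oasl2, Ifnb1, Kbtbd11) take their height from the small count the fit adds.

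The genes with the largest rises were antiviral genes that were nearly or fully silent with vehicle. Oasl2, an OAS-like protein gene, had 0 counts in all 3 vehicle libraries and 380, 358 and 377 CPM with IFNb, at least 2313-fold higher. Oas2, an enzyme that double-stranded RNA activates, went from 0 counts to 359, 305 and 297 CPM, at least 1981-fold higher. Ddx60, a helicase gene that aids RNA sensing, went from 0 to 192, 184 and 184 CPM. The p200 genes Ifi203 and Ifi204 and the nuclear body gene Sp100 also had no count with vehicle, and reached 112, 107 and 98.4 CPM in the mean. Trim30d reached 140 CPM, Oasl1 122 CPM and Slfn8 72.9 CPM, each from 0. I830012O16Rik had 1 count with vehicle and 557, 545 and 575 CPM with IFNb, a ratio of 10445 with a 95% counting interval of 1874 to 412592. In all, 69 symbols had no count in the vehicle libraries and 30 counts or more with IFNb. Of these, 33 also reached 30 counts in control cells with IFNb, and 14 had no count there.

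Measured by the amount gained, the response was led by interferon-stimulated genes and by genes of other kinds. Rn45s gained most, from 213956 to 279766 CPM in the mean. The libraries were depleted of ribosomal RNA, so whether the precursor itself rose was not tested. In control cells the Rn45s share of the counts went from 21.49, 21.56 and 22.45% with vehicle to 25.25, 24.9 and 25.35% with IFNb. Next came Rsad2 (viperin, an enzyme that makes a chain-terminating nucleotide), with 20.2, 24.3 and 21.0 CPM before and 2962, 2845 and 2959 CPM after. Ifit2, Ifit3 and Ifit1 reached 1937, 1602 and 1554 CPM in the mean with IFNb. Sqstm1, the autophagy receptor p62, rose from 515, 536 and 528 to 2782, 2936 and 2905 CPM. Gpnmb, a melanosomal glycoprotein gene, rose 1.51-fold from 3244, 3206 and 3236 to 4935, 4719 and 5020 CPM. The largest losses in CPM were abundant housekeeping and lineage transcripts. Eef1a1, a translation elongation factor, went from 4213, 4309 and 4201 to 1849, 1946 and 2070 CPM. Dct fell from 5201 to 2804 CPM in the mean, and Met, a growth factor receptor of melanocytes, fell from 2019, 1943 and 2019 to 734, 651 and 682 CPM. Also in this group were Scd2 (2025 to 588 CPM in the mean), Tubb5 (1494 to 224 CPM), Pkm2 (1498 to 446 CPM), Nedd4 (1818 to 858 CPM) and Actb (3057 to 2079 CPM).

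The largest falls were found mostly in genes of cell division. 2810417H13Rik, the symbol used here for a PCNA-associated factor, went from 116, 108 and 113 to 1.14, 1.05 and 1.27 CPM, 97.4-fold lower. E2f8, an E2F factor of the S and G2 phases, went from 49.2, 44.5 and 44.4 to 0.758, 0.601 and 1.27 CPM, 52.4-fold lower. Neil3, a DNA glycosylase (73.9-fold), Hist1h2af, a replication-dependent histone gene (58.6-fold), Pbk, a mitotic kinase (50.5-fold), Fam64a (48.3-fold), Melk (45.0-fold) and Tk1, thymidine kinase (42.2-fold), fell with them. A few of the largest falls were in genes with no role in division. Slc16a3, the lactate exporter MCT4, went from 135, 148 and 141 to 3.03, 2.41 and 2.53 CPM, 54-fold lower. Car9, a carbonic anhydrase induced by hypoxia, fell 37-fold, and Npnt, a matrix protein, 35.7-fold. Kbtbd11 had 548 counts with vehicle (24.5, 30.2 and 33.2 CPM) and none with IFNb, at least 178-fold lower. It is 1 of 4 symbols with no count with IFNb and 30 or more with vehicle, the others being Aire (113 counts), 4931408C20Rik (38) and Csdc2 (33).

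The signalling chain itself changed unevenly. Of 10 receptor and JAK-STAT genes tested, 6 rose and 2 fell, with a median log2 fold change of 0.34. Stat2, of the ISGF3 complex, went from 7.02, 8.28 and 7.67 to 340, 338 and 331 CPM, 43.6-fold higher, and Irf9, its DNA-binding partner, from 4.11, 3.18 and 3.03 to 141, 145 and 144 CPM, 41.9-fold higher. Ifnar1, a receptor chain, fell from 103, 103 and 93.1 to 75.8, 65.7 and 68.7 CPM (log2 fold change -0.52 ± 0.06). Ifnar2 (0.16 ± 0.10) and Tyk2 (0.13 ± 0.08) did not pass the test, and Jak1 rose 1.12-fold. All 6 interferon regulatory factor genes tested rose, with a median of 2.02. Irf7, which drives later interferon genes, went from 0.685, 0.69 and 0.535 to 102, 107 and 114 CPM, 168-fold higher. Irf1 rose 8.51-fold, from 9.59, 10.9 and 7.84 to 84.8, 78.2 and 82.1 CPM.

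Among 12 brakes on the pathway 5 rose and 3 fell (median 0.27), shares of 41.7 and 25% against 36.6 and 35.7% of all genes. Usp18, which removes ISG15 and blocks the receptor, went from 0.685, 1.93 and 1.07 to 768, 786 and 843 CPM, 623-fold higher. Isg15, the ubiquitin-like modifier, went from 0.857, 1.38 and 0.713 to 446, 475 and 497 CPM. Socs1, an inhibitor of JAK kinases, rose 16.3-fold to 10.0, 9.17 and 7.12 CPM. The inhibitor Socs3 fell 2.07-fold and the phosphatase Ptpn6 2.32-fold.

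Antiviral effectors were higher in nearly all cases. Of 44 tested members 43 rose, each at least 2-fold, and 1 fell. The 8 members with no count with vehicle, and others with few, passed the filter only through libraries with IFNb. They had to rise, so part of this count was fixed in advance. Their median log2 fold change was 6.44, or 5.98 with the 8 members that had no count in a group set at their bound, against 0.01 for all genes. The 47 members in the table together took 0.0932, 0.0978 and 0.0968% of the counts without Rn45s with vehicle and 2.70, 2.64 and 2.68% with IFNb. Ifit1, which binds RNA lacking a cellular cap, went from 1.37, 0.828 and 0.891 to 1576, 1530 and 1557 CPM, 1527-fold higher. Mx1, a GTPase that blocks influenza viruses, went from 2.06, 3.18 and 2.14 to 1185, 1132 and 1165 CPM. Oas1a had 1 count with vehicle and 109, 120 and 111 CPM with IFNb, a ratio of 2131 with a 95% counting interval of 382 to 84200. Bst2 (tetherin) started higher, at 12.2, 17.3 and 13 CPM, and rose to 485, 491 and 508 CPM. Parp14, an ADP-ribosyltransferase, rose 269-fold. The exception was Ifitm2, a membrane restriction factor that fell from 38.5, 36.9 and 31.9 to 25.2, 25.3 and 25.8 CPM (-0.50 ± 0.10).

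Nucleic acid sensors rose in 15 of 19 cases, with a median of 2.71, and 1 fell. Ddx58, which encodes RIG-I, went from 5.82, 4.97 and 3.21 to 637, 675 and 640 CPM, 138-fold higher. Ifih1, which encodes MDA5, the sensor of long double-stranded RNA, went from 3.25, 2.62 and 5.53 to 350, 363 and 341 CPM. Zbp1, a sensor of Z-form nucleic acid, had no count with vehicle and 160, 160 and 162 CPM with IFNb, at least 1003-fold higher. Eif2ak2, which encodes PKR and sits in the antiviral list, was already at 33.7, 31.1 and 33.3 CPM and rose 6.38-fold to 219, 209 and 198 CPM. The adaptor Mavs did not pass the test (32.9, 34.2 and 29.9 against 34.8, 41.9 and 33.5 CPM, overlapping, adjusted p = 0.0637), and neither did Traf3 or the helicase gene Dhx9 (0.01 ± 0.06). Prkra, an activator of PKR, was lower (log2 fold change -0.41 ± 0.14), with overlapping groups, and its call ended without IFNb replicate 1 (adjusted p = 0.0586).

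All 16 tested GTPase genes of the GBP and IRG families rose, with a median of 9.57, or 8.42 with 6 members at their bound. Most of them had no count or few counts with vehicle and passed the filter only through libraries with IFNb. The count of rises therefore supports nothing about the families. These proteins coat and break the vacuoles of intracellular microbes. Gbp2 went from 1.71, 0.966 and 1.60 to 272, 279 and 296 CPM, 203-fold higher. Igtp had 3 counts with vehicle and 366, 353 and 367 CPM with IFNb, a ratio of 2251 with a counting interval of 770 to 10918. Iigp1 had 2 counts and then 382, 360 and 371 CPM, a ratio of 3460 with an interval of 958 to 28579. Gbp4 and Gbp9 went from no count to 65.4 ± 5.74 and 75.8 ± 2.85 CPM (mean ± SD, n = 3). Irgm1 was already counted with vehicle, at 14.7, 13.9 and 15.7 CPM, and reached 806, 785 and 809 CPM. Genes of these families have close copies, and how reads were divided among copies is not given in the sources used here.

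Antigen presentation by MHC class I rose as a whole, in 17 of 17 tested genes and each at least 2-fold (median 4.78, or 4.63 with bounds). Some of the 17, among them Tap1, Nlrc5 and Psmb9, passed the filter only through libraries with IFNb and so had to rise. B2m, the light chain, went from 70.1, 70.5 and 66.3 to 969, 970 and 1017 CPM. The heavy chain gene H2-K1 rose 34.1-fold, from 4.11, 5.11 and 7.67 to 193, 177 and 200 CPM, and H2-D1 24.8-fold, to 798, 807 and 833 CPM. Tap1, of the peptide transporter, had 2 counts with vehicle and 85.0, 85.8 and 98.9 CPM with IFNb, a ratio of 842 with an interval of 233 to 6960. Nlrc5, the transactivator of class I genes, rose 250-fold to 182, 173 and 167 CPM. Psmb9, an immunoproteasome subunit, had no count with vehicle and 9.28, 4.66 and 12.8 CPM with IFNb, while Psmb8 is listed at 0 in all 6 libraries. Of 8 class II presentation genes 1 passed the filter on low counts, the invariant chain gene Cd74, which rose 26.2-fold to 11.4, 11.4 and 14.9 CPM. The copy H2-K2 reads close to H2-K1, so its rise (0.485 to 59.0 CPM in the mean) is uncertain.

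Of 25 chemokine and cytokine genes 8 passed the filter and were called higher, and 3 of the 8 (Cxcl9, Il6 and Lif) had no count with vehicle and passed through libraries with IFNb alone, so the count supports nothing about the list. Cxcl10, a ligand of CXCR3, a chemokine receptor on T cells, went from 3.08, 3.73 and 2.14 to 1294, 1277 and 1308 CPM, 424-fold higher. Ccl5, which draws T cells and other leukocytes, went from 0.857, 0.552 and 1.43 to 267, 262 and 265 CPM. The other CXCR3 ligands had fewer counts with IFNb, 8.33, 9.02 and 7.59 CPM for Cxcl11 and 1.14, 1.80 and 2.37 CPM for Cxcl9. Csf1, the growth factor of macrophages, rose 8.46-fold to 68.0, 60.7 and 68.8 CPM. Among surface ligands 6 of 7 tested genes rose and the other did not pass. Cd274, which encodes PD-L1, went from 4.97, 5.25 and 5.53 to 114, 119 and 117 CPM, 22.3-fold higher. Tnfsf10, the death ligand TRAIL, went from no count to 12.5, 13.2 and 15.2 CPM.

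The cells also expressed interferon RNA of their own. Ifnb1 had no count in the vehicle libraries and 5.68, 4.96 and 5.38 CPM with IFNb (97 counts), at least 33.1-fold higher. It was the 1 gene of 12 interferon genes to pass the filter. Ifna4 had 10 counts with IFNb and none with vehicle. Neither Ifnb1 nor Ifna4 had a count in control cells with IFNb.

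NF-kB genes rose in 15 of 17 cases with a median of 1.06, and none was called lower. NF-kB is a family of dimers held by inhibitors, several of which are targets of NF-kB itself. Relb, a subunit of the non-canonical arm, went from 6.51, 5.66 and 6.24 to 89.2, 93.5 and 83.4 CPM, 14.6-fold higher. Its partner Nfkb2 rose 4.54-fold, from 31.0, 27.6 and 30.7 to 129, 140 and 133 CPM. Rela rose 2.09-fold, and Nfkb1 did not pass the test (0.12 ± 0.07). The inhibitor genes moved with them, Nfkbia rising 2.88-fold (6.85, 7.59 and 7.13 to 21.6, 18.2 and 22.9 CPM) and Tnfaip3, the deubiquitinase A20, 4.66-fold. In control cells, where 26.5% of all genes were called higher and 26.5% lower, the same list had 7 genes higher and 4 lower, with a median of 0.10, and Relb had a log2 fold change of -0.99 ± 0.23 there. The difference in response was called higher in Adar-null cells for 12 of the 17 genes and lower for none, against 28.6 and 30.7% of all genes.

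Immediate early genes, the first wave after many stimuli, rose in 13 of 16 cases (median 0.85), and none fell, though 1 was called lower with scaling by library size alone and without vehicle replicate 3. Junb rose 7.55-fold to 113, 109 and 125 CPM. Egr1 rose 1.91-fold and Fos 1.56-fold. Feedback genes of the MAPK pathway went the other way, with 5 of 10 lower and 1 higher. Dusp6, a phosphatase of ERK, fell from 115, 138 and 139 to 101, 106 and 103 CPM (-0.34 ± 0.06).

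**Figure D2:**
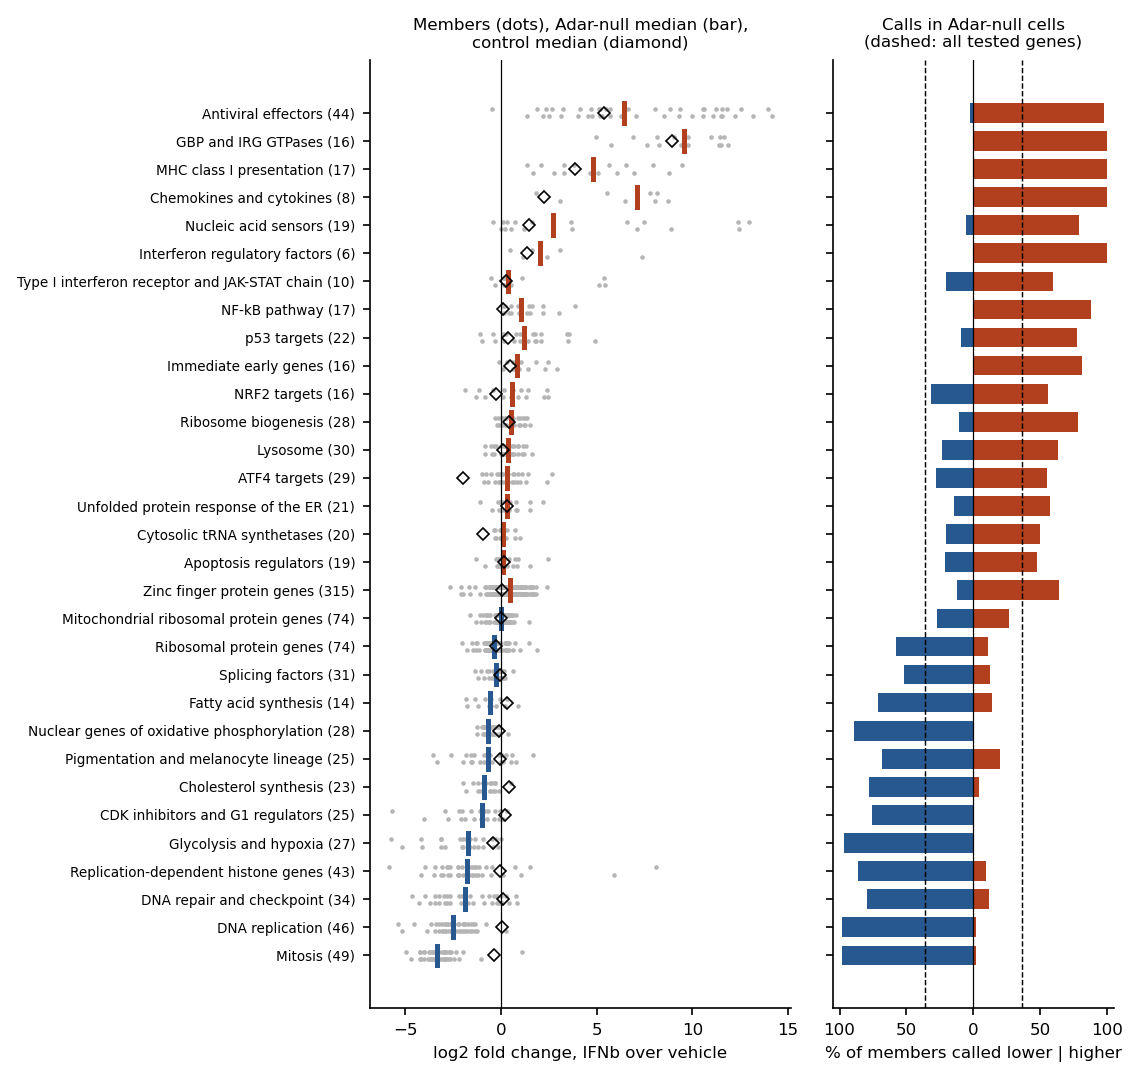
Left, log2 fold change with IFNb in Adar-null cells for the tested members of each list (dots, number in brackets), their median (bar) and the median in control cells (diamond). Right, the percent of members called lower (blue) and higher (red), with dashed lines at the 35.7 and 36.6% of all tested genes. The antiviral and GBP and IRG lists have medians of 6.44 and 9.57, the mitosis and DNA replication lists of -3.32 and -2.53, and genes at 0 in a group take their value from the small count the fit adds.

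Genes of cell death were taken by pathway. Of 10 tested necroptosis and pyroptosis genes 5 rose (50%) and 2 fell (20%), with a median of 0.36, against 36.6 and 35.7% of all genes. In control cells 5 rose and 2 fell as well, with a median of 0.34. The difference in response was called higher in Adar-null cells for 4 and lower for 2. Fadd was among the falls, and Dfna5 and Ninj1 did not pass the test. Mlkl, the pore protein of necroptosis, went from 11.8, 11.7 and 10.7 to 90.9, 89.7 and 86.5 CPM, 7.77-fold higher. Ripk1 rose 2.38-fold, and Ripk3, the kinase that activates MLKL, is listed at 0 in all 6 libraries. Casp4, which starts pyroptosis, had no count with vehicle and 7.58, 6.61 and 5.70 CPM with IFNb. Gsdmd, the pore protein of pyroptosis, rose 13.7-fold to 6.63, 7.97 and 7.28 CPM, and the inflammasome adaptor Pycard fell 2.39-fold. Casp8 did not pass the test and its groups overlap (55.5, 55.4 and 52.4 against 50.6, 53.1 and 56.5 CPM). Of 19 apoptosis genes 9 rose (47.4%) and 4 fell (21.1%), with a median of 0.12, against 36.6 and 35.7% of all genes. Bbc3, the p53 target PUMA, rose 5.48-fold to 70.1, 80.4 and 73.6 CPM. Bcl2l11 did not pass (-0.08 ± 0.16), Mcl1 fell 1.11-fold, and Pmaip1 is listed at 0 in every library.

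The fall of the cell division genes was nearly complete across the lists. In a bulk library it cannot be told whether fewer cells were dividing or each cell held less of these RNAs. Of 25 tested G1 regulators 19 fell and none rose (median -0.97), and without IFNb replicate 1 a gene was called higher. The CDK inhibitor gene Cdkn1a, which rose, was listed with the p53 targets below and not here. E2f1 went from 45.7, 52.6 and 46.0 to 4.55, 6.46 and 7.59 CPM, 7.69-fold lower. Ccnd1, cyclin D1, fell 2.14-fold, from 89.1, 97.3 and 88.2 to 40.7, 40.3 and 47.6 CPM. Ccne1, cyclin E1, fell 4.30-fold and Cdk2 3.01-fold. The inhibitor Cdkn1b (p27) did not pass the test (-0.01 ± 0.05), and Cdkn2a is listed at 0 in all 6 libraries. Rb1 fell 1.29-fold. In control cells 14 of the same 25 genes were higher and 6 lower with IFNb, and the difference in response was called lower in Adar-null cells for 20.

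DNA replication genes fell in 45 of 46 cases, 44 of them at least 2-fold, with a median of -2.53. The exception, Orc2 of the origin recognition complex, rose 1.20-fold. Rrm2, the small subunit of ribonucleotide reductase, went from 238, 248 and 226 to 10.8, 11.7 and 8.07 CPM, 23.4-fold lower. Mcm2, of the replicative helicase, fell 5.06-fold, from 573, 592 and 576 to 109, 116 and 119 CPM. Mcm6 went from 259, 284 and 281 to 41.9, 49.3 and 50.2 CPM and Pcna, the sliding clamp, from 69.7, 74.1 and 78.1 to 21.4, 15.9 and 18.8 CPM. Cdc6, the helicase loader, went from 25, 29.7 and 30.3 to 1.33, 0.601 and 0.475 CPM. Control cells had 18 of the 46 genes higher and 4 lower with IFNb. The difference in response was called lower in Adar-null cells for 45 genes and higher for 1.

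Mitosis genes fell in 48 of 49 cases, all 48 at least 2-fold, with a median of -3.32. Top2a, the topoisomerase of chromosome condensation, went from 744, 728 and 705 to 31.8, 43.1 and 41.1 CPM, 18.5-fold lower. Mki67, the proliferation marker Ki-67, went from 795, 791 and 808 to 54.0, 72.9 and 53.5 CPM. Ccnb1, cyclin B1, fell 19.1-fold, from 78.3, 66.1 and 63.5 to 4.36, 3.31 and 3.32 CPM. Cdk1, its kinase, went from 127, 123 and 119 to 16.1, 14.4 and 18.0 CPM. Nuf2 of the kinetochore fell 31.7-fold, the largest fall of the list. Pttg1, securin, rose 2.18-fold, from 11.3, 7.18 and 9.80 to 20.8, 18.8 and 21.0 CPM, with a log2 fold change of 1.12 ± 0.15, and of 1.26 ± 0.15 in control cells. Replication and mitosis genes together went from 1.44 ± 0.0337 to 0.229 ± 0.00556% of the counts without Rn45s (mean ± SD, n = 3). In control cells 40 of the 49 mitosis genes also fell, with a median of -0.37, and the difference in response was called lower in Adar-null cells for 48.

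Genes that work beside replication followed. Of 43 tested replication-dependent histone genes 37 fell and 4 rose (median -1.78). Of 33 kinesin genes, several of them also in the mitosis list, 25 fell and 4 rose (median -1.24). The fall was largest in Kif14 (70.8, 76.1 and 70.8 to 4.92, 3.91 and 3.96 CPM) and the rise in Kif5c, a neuronal transport motor (17.1-fold). Of 13 tubulin genes 9 fell and 2 rose. Histone genes have near-identical copies, and Hist1h2aa, at 0 with vehicle and 5.49, 6.46 and 4.75 CPM with IFNb, is uncertain for that reason. H2afx, the variant marked at DNA breaks, fell 13.6-fold, from 485, 536 and 452 to 35.8, 37.3 and 36.4 CPM.

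DNA repair and checkpoint genes fell in 27 of 34 cases and rose in 4 (median -1.88). Brca1 went from 165, 164 and 163 to 22.5, 22.7 and 20.4 CPM, 7.50-fold lower. Rad54l fell 25.7-fold. Atm, the kinase that signals breaks, rose 1.80-fold, and in control cells by 0.75 ± 0.06 on the log2 scale. Among 19 silencers of repeats 11 fell and 4 rose, and Uhrf1 and Dnmt1 among the falls are also in the replication list. Uhrf1, which brings DNA methyltransferase to new DNA, fell 14.7-fold (238, 241 and 217 to 13.4, 17.4 and 16 CPM), and Dnmt1, that methyltransferase, 5.79-fold. Setdb1 (0.06 ± 0.07) and Trim28 (-0.02 ± 0.06), which silence repeats through histone H3, did not pass the test. Daxx, a histone chaperone gene known to respond to interferon, rose 7.89-fold to 226, 227 and 219 CPM.

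p53 targets rose in 17 of 22 cases and fell in 2 (median 1.19). Cdkn1a, which encodes the CDK inhibitor p21, went from 80.5, 79.1 and 80.9 to 854, 913 and 910 CPM, 11.2-fold higher. Mdm2, the ubiquitin ligase of p53, rose 3.17-fold, from 68.9, 64.3 and 71.3 to 223, 208 and 216 CPM. Btg2, an antiproliferative gene, rose 30.3-fold to 48.5, 42.5 and 41.1 CPM. Gadd45a rose 3.46-fold, to 17.6, 24.4 and 23.7 CPM. Ccng2 and Sesn1 fell, Ccng2 2.10-fold. In control cells 15 of these genes rose and 3 fell, with a median of 0.35. The difference in response was called higher in Adar-null cells for 15 genes and lower for 1.

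**Figure D3:**
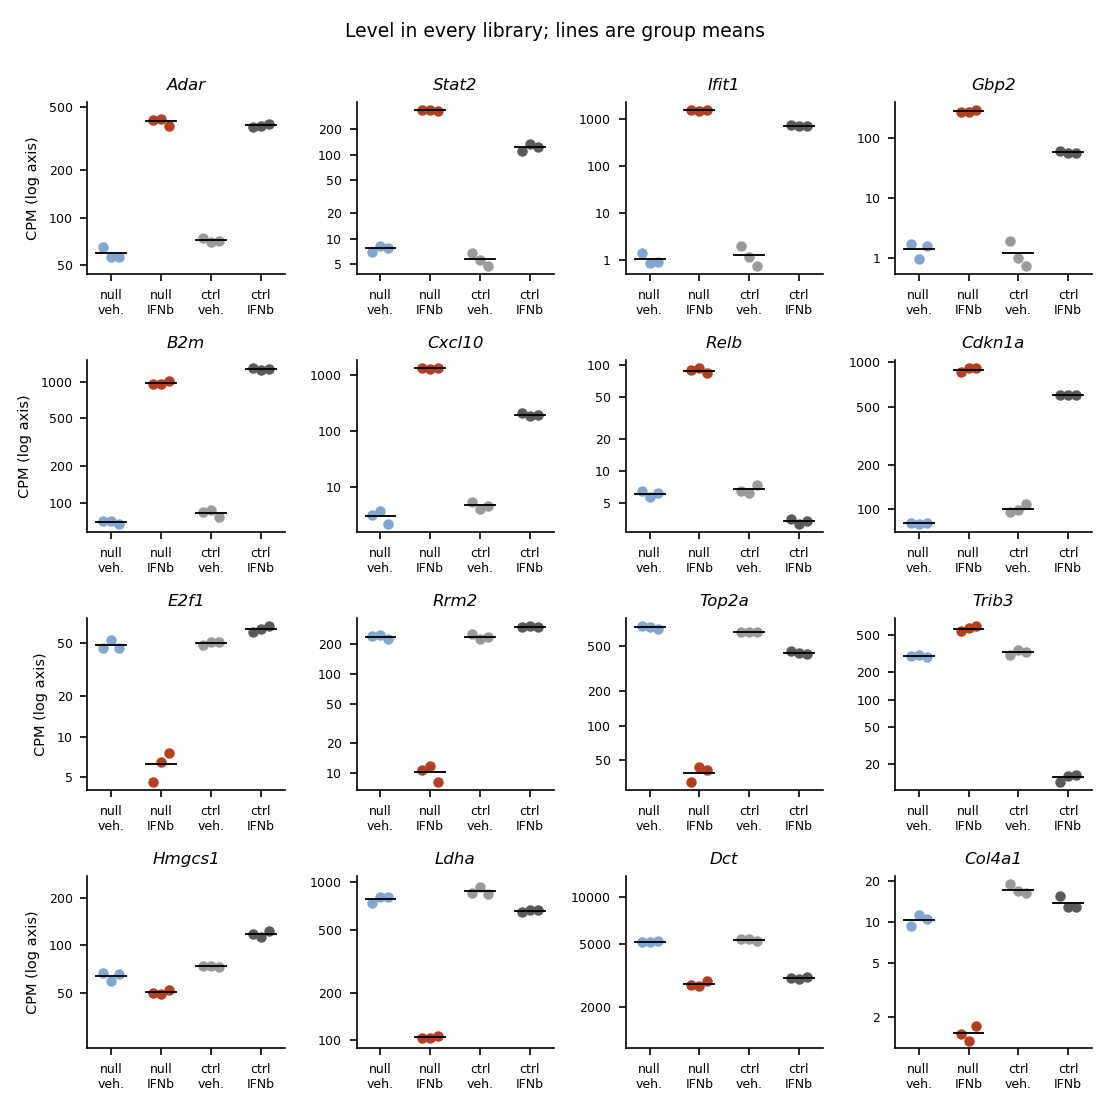
Levels (CPM, log axis) of 16 genes in each of the 12 libraries (points) by group, Adar-null (null) and control (ctrl) with vehicle (veh.) or IFNb, with lines at the group means. In Adar-null cells Stat2, Ifit1, Gbp2, B2m, Cxcl10, Relb and Cdkn1a were higher and E2f1, Rrm2, Top2a, Ldha and Dct lower with IFNb, and Trib3 and Relb lie lower with IFNb than with vehicle in control cells.

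Myc, a transcription factor of growth genes, fell 1.95-fold, from 116, 124 and 118 to 62.5, 60.3 and 62.5 CPM. Ribosome biogenesis genes, many of them known targets of MYC, rose in 22 of 28 cases and fell in 3 (median 0.50), with Rrp12 2.89-fold higher and Nhp2 1.24-fold lower. In control cells 21 of the 28 rose and 3 fell (median 0.42). Ribosomal protein genes fell in 43 of 74 cases and rose in 8 (median -0.35), and in control cells 36 fell and 6 rose (median -0.26). Rpl39 fell 4.15-fold and Rpl12 rose 3.68-fold, and both are uncertain, as ribosomal protein genes have many processed copies. Translation factor genes split into 10 higher (37.0%) and 15 lower (55.6%), against 36.6 and 35.7% of all genes, with Eif5 rising 2.49-fold to 643, 671 and 651 CPM. Splicing factors were lower in 16 and higher in 4 of 31 cases.

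The stress genes under ATF4, a factor whose translation rises when PKR or a related kinase phosphorylates eIF2α, divided into rises and falls. Of 29 tested targets 16 rose (55.2%) and 8 fell (27.6%), with a median of 0.31, against 36.6 and 35.7% of all genes. Atf3 rose 6.45-fold, from 28.1, 30.9 and 32.4 to 195, 202 and 192 CPM. Ddit3, which encodes CHOP, rose 2.68-fold to 275, 293 and 295 CPM, and Trib3, a pseudokinase induced by CHOP, 1.99-fold to 548, 592 and 624 CPM. Slc7a11, the cystine transporter, rose 1.88-fold. Atf4 itself did not pass the test and its groups overlap (614, 617 and 623 against 600, 641 and 637 CPM). The falls were in enzymes of amino acid and folate supply, among them Asns (1.18-fold), Psat1 (1.88-fold), Shmt2 (1.75-fold) and Mthfd2 (1.61-fold), and in the transporter Slc7a5 (1.96-fold).

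In control cells the same list went down with IFNb: 28 of 29 genes fell and none rose, with a median of -2.01. Trib3 had a log2 fold change of -4.49 ± 0.10 there, Atf4 of -2.01 ± 0.06 and Slc7a11 of -4.53 ± 0.14. The difference in response was called higher in Adar-null cells for 28 of the 29 genes and lower for none. Cytosolic tRNA synthetases, many of which are ATF4 targets, showed the same contrast. In Adar-null cells 10 of 20 rose (6 with scaling by library size alone) and 4 fell, in control cells 4 rose and 14 fell, and the difference was called higher in Adar-null cells for 15 and lower for 2.

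Genes of the unfolded protein response of the endoplasmic reticulum rose in 12 of 21 cases and fell in 3 (median 0.31). In control cells 13 of them rose and 5 fell (median 0.30). The difference in response was called higher in Adar-null cells for 8 and lower for 10. Hspa5, the chaperone BiP, went from 335, 321 and 331 to 1414, 1491 and 1638 CPM, 4.63-fold higher, and Xbp1 rose 2.82-fold. Hsp90b1, another chaperone of the same compartment, rose 1.24-fold, and the co-chaperone Dnajc3 fell 2.15-fold. Of 15 cytosolic heat shock genes 10 rose and 3 fell (median 0.22), with Hspa1b, a stress-inducible Hsp70 gene, 15.1-fold higher at 18.7, 30.2 and 22.3 CPM. In control cells 13 of the 15 rose and none fell (median 0.66). The difference was called higher in Adar-null cells for 3 and lower for 7. Of 16 NRF2 targets 9 rose and 5 fell (median 0.57). Hmox1, heme oxygenase 1, went from 89.9, 96.9 and 95.6 to 428, 457 and 466 CPM, 4.79-fold higher, while in control cells its log2 fold change was -0.96 ± 0.07. Srxn1 rose 5.38-fold, and the metallothionein gene Mt1 fell 3.76-fold.

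Genes of lipid synthesis were lower. Of 23 cholesterol synthesis and uptake genes 18 fell and 1 rose (median -0.87). Cyp51, a demethylase of lanosterol, went from 89.9, 93.2 and 86.3 to 51.9, 49.6 and 57.1 CPM, 1.70-fold lower. Hmgcs1, an enzyme of the same pathway, fell 1.26-fold (66.1, 59.5 and 65.2 to 49.8, 49.2 and 51.9 CPM). The rise was in Hsd17b7, 1.43-fold, whose call ended without vehicle replicate 1 (adjusted p = 0.0546). In control cells 18 of the 23 genes rose and none fell, and the difference in response was called lower in Adar-null cells for 22. Fatty acid synthesis genes fell in 10 of 14 cases. Elovl6, an elongase, fell 3.52-fold and Scd2, a desaturase, 3.45-fold, while Fasn did not pass (421, 432 and 410 against 393, 426 and 411 CPM, overlapping) in Adar-null cells and rose by 1.11 ± 0.06 in control cells.

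Glycolysis and hypoxia genes fell in 26 of 27 cases, 20 of them at least 2-fold, and none rose (median -1.75). Ldha, lactate dehydrogenase A, went from 744, 807 and 811 to 103, 104 and 106 CPM, 7.56-fold lower. Pfkl, of the committing step, fell 8.96-fold and Tpi1 8.66-fold, from 911, 1006 and 1014 to 101, 109 and 127 CPM. Slc2a1, the glucose transporter GLUT1, went from 104, 123 and 123 to 34.3, 41.2 and 39.7 CPM. Vegfa, a classical hypoxia target, fell less, by 1.20-fold, and Ndrg1 1.12-fold with overlapping groups. Slc2a3 did not pass the test. Gapdh, at 10.8, 13.1 and 9.09 CPM with vehicle, is uncertain because of its many processed copies. In control cells 21 of the 27 genes fell too, with a median of -0.41, and the difference was called lower in Adar-null cells for 22 and higher for 1. Nuclear genes of oxidative phosphorylation were lower in 25 of 28 cases with a smaller median of -0.68. Ndufa4 (77.3, 81.3 and 74.0 to 29.7, 30.2 and 36.1 CPM) had the largest of these falls.

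Lysosomal genes rose in 19 of 30 cases and fell in 7 (median 0.35). Lamp1, a membrane protein of the lysosome, went from 437, 454 and 444 to 663, 660 and 685 CPM, and Ctsd, the protease cathepsin D, from 670, 691 and 698 to 1090, 1088 and 1160 CPM. Tfeb, a transcription factor of lysosome genes, fell 1.80-fold. Proton pump genes were higher in 8 (53.3%) and lower in 5 (33.3%) of 15 cases, against 36.6 and 35.7% of all genes. Proteasome core and cap genes were lower in 17 and higher in 6 of 34 cases, with no change of 2-fold.

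Pigmentation and lineage genes fell in 17 of 25 cases and rose in 5 (median -0.69). Tyr, tyrosinase, went from 739, 693 and 762 to 257, 237 and 248 CPM, 2.95-fold lower. Dct went from 5198, 5158 and 5247 to 2754, 2720 and 2936 CPM and Pmel from 2930, 2949 and 2913 to 1843, 1740 and 1913 CPM. Tyrp1, of the same pathway, did not pass the test and its groups overlap (4427, 4425 and 4516 against 4556, 4273 and 4563 CPM). Mitf, the master factor of melanocytes, fell 1.40-fold, from 880, 881 and 879 to 661, 621 and 614 CPM, and Sox10 1.09-fold. Of 10 genes linked to dedifferentiated melanoma 5 rose and 3 fell. Axl, a receptor kinase of that state, rose 6.45-fold to 72.2, 75.3 and 79.7 CPM (log2 fold change 2.69 ± 0.11, and 2.19 ± 0.12 in control cells), and Cd44 fell 1.92-fold. Among 18 matrix genes 9 fell and 5 rose. Fn1, fibronectin, rose 2.58-fold to 272, 281 and 284 CPM, and Col4a1, a basement membrane collagen, went from 9.42, 11.3 and 10.5 to 1.52, 1.35 and 1.74 CPM. Spp1 had 2 counts with vehicle and 12 with IFNb, a ratio of 6.14 with an interval of 1.37 to 56.5, and its call ended without vehicle replicate 2 (adjusted p = 0.0909).

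Large gene families gave a background for these lists. Of 315 zinc finger protein genes (symbols that begin with Zfp), a family rich in repressors, 202 rose and 39 fell, with a median of 0.45 against 0.01 for all genes, and 45 rose at least 2-fold. Zfp874a rose most, from 8.22, 8.42 and 6.95 to 44.7, 38.2 and 41.6 CPM. In control cells 68 of the family rose and 55 fell, and the difference was called higher in Adar-null cells for 158 and lower for 30. Solute carrier genes split into 58 higher and 64 lower of 183. Tripartite motif genes rose in 22 of 39 cases and fell in 8, and PARP genes rose in 9 of 12 and fell in 3. Schlafen genes rose in 4 of 5 cases, with Slfn3 falling 1.41-fold. Of these Schlafen genes 3 had no count with vehicle, passed the filter only through libraries with IFNb and had to rise. The difference in response was called lower in Adar-null cells for 2 Schlafen genes and higher for none. Of 750 clones with a RIKEN symbol 252 rose (33.6%) and 220 fell (29.3%), and of 145 predicted genes 46 rose (31.7%) and 39 fell (26.9%). Among genes outside the lists, Ube2l6, the conjugating enzyme for ISG15, rose 87.3-fold to 180, 187 and 166 CPM. Apod, a lipocalin, rose from 3 counts to 43.9, 49.5 and 58.7 CPM (ratio 318, interval 109 to 1545), and Ckb, creatine kinase B, fell 13.4-fold.

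A few RNAs often used or watched as references moved as well. Of 15 common reference genes 10 fell and 2 rose, with a median of -0.43. Actb was lower by 1.47-fold and Pgk1 by 4.14-fold, while Tbp, Rplp0 and Rpl13a did not pass the test. Malat1, a nuclear long RNA, stood at 3290, 2551 and 2786 CPM with vehicle and at 7200, 4539 and 3695 CPM with IFNb. Its groups do not overlap, but IFNb replicate 1 stands apart and the test was not passed (adjusted p = 0.0532, and 0.0203 to 0.313 over the other settings). Neat1 had the same library highest, at 486 CPM against 282 and 248, and did not pass either. Of 30 genes of the cleavage-stage embryo 2 passed the filter, and Dub1 had 44 counts with IFNb and none with vehicle or in control cells. Vwf, an endothelial marker, rose from 1.54, 1.24 and 2.14 to 12.9, 15.3 and 9.81 CPM. Beside it the 4 other endothelial markers summed to at most 1.70 CPM, and their part in it was not tested.

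The response of Adar-null cells was set against that of control cells by the test of the difference, which called 6855 genes (59.3%), 3308 of them higher (28.6%) and 3547 lower (30.7%) in Adar-null cells. In control cells 3067 genes were called higher (26.5%) and 3066 lower (26.5%) with IFNb. Of the 4232 genes that rose in Adar-null cells, 1725 rose in control cells (40.8%), 683 fell there (16.1%) and 1824 were not called. Of the 4132 that fell, 1671 fell in control cells (40.4%) and 745 rose (18.0%). Among the 1079 rises of at least 2-fold, 585 also rose in control cells, and for 328 of these the difference was called higher in Adar-null cells and for 16 lower. A further 85 fell in control cells, with the difference called in all 85, and 409 were not called there, with the difference called in 334. Among the 1347 falls of at least 2-fold, 561 also fell in control cells, with the difference called lower in Adar-null cells for 490. In 219 the control response was a rise and the difference was called in each, and in 567 the control response was not called, with the difference called in 527.

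**Figure D4:**
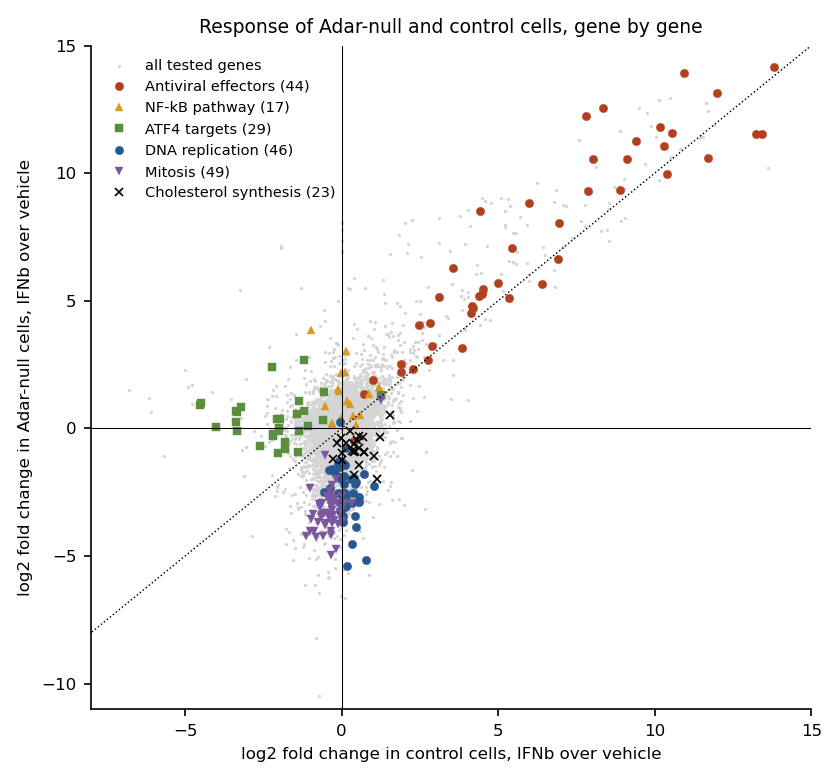
Log2 fold change with IFNb in control cells (x axis) and Adar-null cells (y axis) for all tested genes (grey), with 6 lists in colour and a dotted line of equal response. Most antiviral genes lie along or above the line at high values, most replication and mitosis genes lie below it near a control response of 0, and ATF4 targets lie above it at negative control values. Genes at 0 in a group take their place from the small count the fit adds.

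The antiviral programme itself was shared in direction, with the exception of Ifitm2, and in part differed in size. All 44 tested effectors rose in control cells, with a median of 5.4, among them Ifitm2, which fell in Adar-null cells. The difference was called higher in Adar-null cells for 23 and lower for 3. Mx1 differed by 2.85 ± 0.35 on the log2 scale and reached 107 CPM in the mean in control cells. Bst2 (-0.24 ± 0.15), Eif2ak2 (-0.07 ± 0.10) and Isg15 (0.31 ± 0.51) did not differ beyond the test, though Bst2 was called lower without Adar-null vehicle replicate 1 (-0.34, adjusted p = 0.0275). The difference was likewise not called for B2m (-0.12 ± 0.09, adjusted p = 0.111), but it was without Adar-null IFNb replicate 3 (-0.16, adjusted p = 0.0349) and without control vehicle replicate 2 (-0.17, adjusted p = 0.0397). For genes at 0 in the vehicle groups of both genotypes, such as Oasl2 and Gbp9, the test of the difference is not informative. Their mean levels with IFNb were 372 and 75.8 CPM in Adar-null and 296 and 19.1 CPM in control cells. The ligand genes differed more: Cxcl10 by 3.33 ± 0.26 and Ccl5 by 5.91 ± 0.53.

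The largest positive differences among genes of at least 10 CPM were found in 8 genes, of which 6 fell, 1 rose (Ccl5) and 1 was not called (Akap3) in control cells. Akr1b7, an aldo-keto reductase, rose in Adar-null cells from 2.57, 2.35 and 3.92 to 10.6, 15.3 and 16.1 CPM and fell in control cells from 4.03 to 0.111 CPM in the mean (difference 7.30 ± 1.11). The last mean lies below the floor of control cells with IFNb, 0.157 CPM, so the size of this difference and its place in the ranking are uncertain. Akap3 (6.81 ± 1.10), Angptl6 (6.51 ± 0.54), Apobr (6.47 ± 0.76), Ccl5 (5.91 ± 0.53), Gm15663 (5.73 ± 0.78), Trib3 (5.48 ± 0.12) and Slc7a11 (5.44 ± 0.15) followed. The largest negative differences were in division genes, 2810417H13Rik (-6.55 ± 0.32), Cdc6 (-5.94 ± 0.41), E2f8 (-5.89 ± 0.38), Fam64a (-5.60 ± 0.38), Tk1 (-5.55 ± 0.30) and the histone gene Hist1h2af (-5.42 ± 0.30), together with Kbtbd11 and Lgr6 (-5.83 ± 0.87). Lgr6, a receptor of the R-spondin family ligands, rose in control cells from 2.78 to 17.5 CPM and fell in Adar-null cells.

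Promoter motifs were counted in windows from 250 bases before to 50 after the RefSeq start, on both strands, for 9243 tested genes with 11829 promoters. Different motifs were counted separately and may share bases, since TTTCCCGC read on the other strand ends in the GAAA with which the ISRE core begins. The ISRE core was in 22.7% of the promoters of genes raised at least 4-fold, in 3.30% of those lowered at least 4-fold and in 2.98% of all tested. By size of the response the share went from 2.22% at log2 fold changes of -1 to 0, through 3.20% at 1 to 2, 8.97% at 2 to 3 and 14.5% at 3 to 4, to 49.5% of 103 promoters above 6. It was in 9 of 11 promoters of GBP and IRG genes and in 19 of 46 of antiviral effectors. The kappaB motif was in 4.48% of promoters of genes raised at least 4-fold against 1.23% of all, and in 7 of 19 of the NF-kB list. The gamma-activated site TTCNNNGAA was in 11.8% against 6.74%.

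Lowered genes carried other letters. The CHR was in 27.3% of the promoters of genes lowered at least 4-fold, against 12% of all tested and 13.7% of those raised at least 4-fold. It was in 32 of 43 promoters of the mitosis list. An E2F motif, TTTCCCGC or TTTGGCGC, was in 6.61% of the promoters of genes lowered at least 4-fold against 2.95% of all, and in 12 of 46 of the replication list. The ATF4 composite motif TGATGNAA was in 7 of 26 promoters of the ATF4 list against 2.22% of all. Over all 32851 promoters of the table the shares were 3.44% for the ISRE core, 1.20% for kappaB, 8.30% for the gamma-activated site, 17.9% for the CHR, 1.56% for E2F and 3.97% for the ATF4 composite. In the 250 bases before the start alone, the CHR was in 17 of 43 mitosis promoters and E2F in 6 of 46 replication promoters. Base composition was not matched between these sets.

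**Figure D5:**
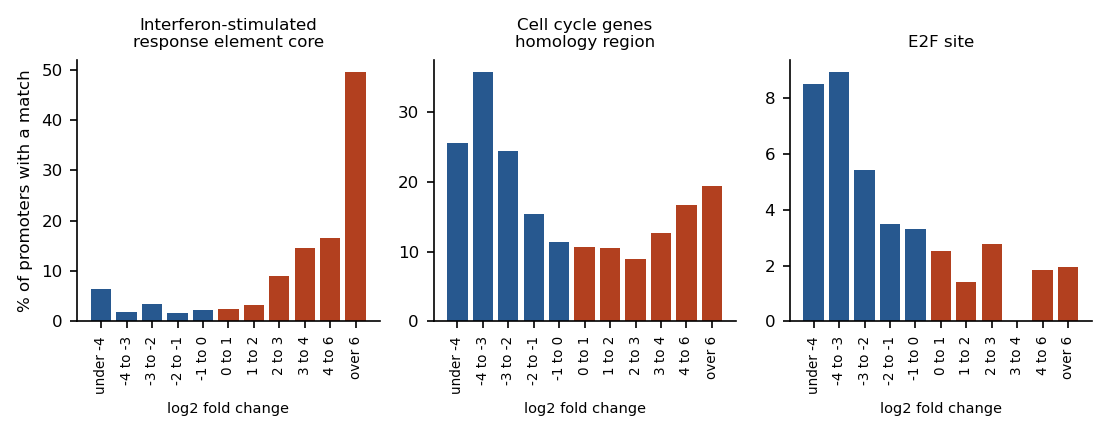
Percent of RefSeq promoters that hold the ISRE core, the CHR and an E2F motif (3 panels, each with its own y axis from 0), by bin of the log2 fold change with IFNb in Adar-null cells, with bins below 0 in blue and above 0 in red. The share with an ISRE core reaches 49.5% in the highest bin, and the share with a CHR reaches 35.7% between -4 and -3.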

How the data were processed

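RNA was sequenced after depletion of ribosomal RNA, per the labels' protocols. The deposited table holds raw read counts for 23336 gene symbols in 12 libraries. Per the submitters' processing notes, the authors used bcl2fastq 2.19.1, Trimmomatic 0.33, Bowtie2 2.2.4, HTSeq 0.6.1p1, DESeq2 and the build mm10. The sources used here give neither the annotation nor the strand setting of the counting, so overlapping and antisense genes cannot be told apart. Genes were filtered with filterByExpr (minimum count 10, total 15), which left 11561. They were scaled by TMM and tested with edgeR 4.0.16 in R 4.3.3, by the robust quasi-likelihood test in 1 fit over 4 groups, with Benjamini-Hochberg adjustment over all genes and a threshold of 0.05. Standard errors are Wald errors and no smaller than counting error. Counting intervals are exact (95%) and cover counting error only. Alternatives used limma 3.58.1, DESeq2 1.42.0, other scalings, no filter, a replicate block and leaving out each library. The fit was tested on simulated data.

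The members and lists were chosen with earlier results of these data known. Some genes sit in several lists, so the lists are not independent of each other. Named are a panel of 82 genes, the 15 largest rises and falls at 10 CPM or more, the 10 largest gains and losses in CPM, the largest rise and fall of each list, the 8 largest differences between genotypes in each direction and the 8 largest rises and falls outside the lists at 50 CPM. Some of these genes are not reported here. Any other list member named was chosen after its values were seen. Of the tested symbols 11464 matched RefSeq. Symbols that read as dates (25) are not named. All 12 libraries of the series are labelled with IFNb or vehicle, and interferon-gamma is not analysed here.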

Additional observations from a re-analysis of the deposited data

Results flagged for a closer look

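Genes of the fixed panel are given here where the test of the difference was called (edgeR, adjusted p under 0.05) and the response of Adar-null cells to IFNb differed from that of control cells by at least 2 on the log2 scale or ran in the opposite direction. All differences are log2 fold changes in Adar-null cells minus those in control cells. Among immune genes the difference was 2.85 for Mx1, 2.08 for Gbp2, 3.33 for Cxcl10 and 5.91 for Ccl5. Among NF-kB genes it was 2.19 for Nfkb2, 4.85 for Relb and 2.11 for Tnfaip3. Among death and damage genes it was -0.28 for Mcl1 and 2.04 for Gadd45a. Among G1 and replication genes it was -2.87 for Ccnd1, -3.28 for E2f1, -2.28 for Pcna and -4.88 for Rrm2. Among mitosis genes it was -3.44 for Ccnb1, -3.61 for Top2a and -3.21 for Mki67, and -3.03 for Brca1, a repair gene. Among stress genes it was 3.89 for Atf3, 2.02 for Atf4, 1.97 for Ddit3, 5.48 for Trib3 and 3.22 for Hmox1. The remaining differences were -0.54 for Dusp6, -1.02 for Hmgcs1, -2.50 for Ldha, 0.68 for Lamp1 and -2.42 for Col4a1.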

How the results depend on the processing

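Tested against a 1.5-fold change in place of any change, 1517 genes were called higher and 1784 lower with IFNb in Adar-null cells, and the difference between genotypes was called higher for 1038 and lower for 1554, fewer because that test asks for a larger change. In every other setting these counts stayed within 1.5 times, and every call shared with the main test kept its direction. The share of higher among all calls was 43.6% with library size alone, where the median over all genes was -0.08, against 50.6%. Tyrp1 then had a log2 fold change of -0.088 (adjusted p = 0.00467) and Fasn of -0.13 (adjusted p = 0.00292), both not called otherwise, which follows from the shift of that median. DESeq2 called 3904 genes higher and 3823 lower. Leaving out 1 library at a time gave 3968 to 4277 higher and 3966 to 4220 lower. With the replicate number as a block, 4216 genes were higher and 4122 lower. Libraries of Adar-null cells with the same number deviated with correlations of 0.0482, 0.0148 and -0.0195, and not every library correlated best with its own number. No pairing by number was thus seen, but values this small do not tell whether such libraries shared a culture or a preparation. In the Adar-null response, calls of Snora7a (adjusted p 0.0612 to 0.221 without any of 3 libraries, 0.0838 with DESeq2) and Snord15b (0.0737 without vehicle replicate 3) were lost beside those given in the report. Calls of the difference between genotypes were lost for other genes too, such as Apol9a (0.0608 to 0.11 where lost) and Ctsf (0.0527 to 0.177 where lost). The cause was not tested. The depth leaves genes under the filter untested, among them most interferon, MHC class II and cleavage-stage genes.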
